A study of Mus musculus with 6 samples.

Results

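The 598 sites described here were strongly called by ChIP-seq for a tethered Nrf1-MafG pair after proteasome inhibition and were called in neither vehicle library. They were chosen from 3379 reproducible MG132 sites, that is, peak summits of MG132 replicate 1 and MG132 replicate 2 no more than 200 bp apart and mutually closest. A site was kept when its score was at least 15 in both MG132 lists and no summit of either vehicle list lay within 200 bp of either of its summits. The score is the authors' own value for a peak, a −log10 p or q value from their peak caller. Of the 3379 sites, 1197 reached the score in both lists, and these are called strong below. The 598 sites are 49.96% of them. Among all reproducible sites, 77.4% (2614 of 3379) had no vehicle summit, and among the 2182 weaker ones 92.4% (2016) had none. The other 599 strong sites were called in vehicle. Since scores and vehicle calls chose the sites, both are given as a description without a test.

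The study mapped T-N1G, in which Nrf1 and MafG are tethered to each other, with an antibody against MafG in mouse embryonic fibroblasts. All 6 libraries, input included, came from cells of genotype MafF-/-::MafG-/-::MafK-/-:T-N1G, so every group lacked the 3 small Maf genes and carried the tethered construct. The 2 vehicle and 2 MG132 libraries were precipitated after a treatment of 4 h, with MG132 at 1.0 µM, and 2 input libraries were not precipitated. The promoter that drives T-N1G, its level in the cells and whether the line is a clone are not stated by the labels, and nothing says whether replicates came from separate cultures. Summit lists hold no expression, so the labelled cell type cannot be checked against its markers.

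Nrf1, encoded by Nfe2l1, is a basic leucine zipper factor of the cap'n'collar family. It is made at the endoplasmic reticulum, and in unstressed cells most of it is extracted and degraded by the proteasome. When the proteasome is blocked, for instance by the peptide aldehyde MG132, Nrf1 accumulates, is cleaved and enters the nucleus, where it is known for activating genes of proteasome subunits. MafG is a small Maf protein without an activation domain of its own. Paired with a cap'n'collar factor it recognises antioxidant response elements, in which a stretch resembling an AP-1 site adjoins the end of a Maf site. Positions below are in the mm9 assembly. No mm9 sequence or gene annotation was used here, so the genes, promoters and motifs at these sites are not stated.

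The vehicle evidence behind the choice came almost wholly from vehicle replicate 2. The lists held 24 summits in vehicle replicate 1 and 828 in vehicle replicate 2, against 3894 and 6576 in MG132 replicates 1 and 2. Of the 599 strong sites that vehicle replicate 2 did not call, vehicle replicate 1 called 1. Without vehicle replicate 2, 1174 strong sites would count as not called. The numbers of reads are not in these lists, so depth is unknown, and a site that was not called may still have been occupied below the threshold. A difference in occupancy and a difference in the sensitivity of the vehicle libraries cannot be told apart for these sites.

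The strongest of the sites not called in vehicle lay on chromosome 5 at 150779723, the summit of MG132 replicate 2, by which all sites are placed below. Its score was 90.4 in MG132 replicate 1 (rank 72 of 3894) and 122 in MG132 replicate 2 (rank 99 of 6576). The second, on chromosome 13 at 57119226, scored 76.9 (rank 97) and 131 (rank 81). They were the only 2 of the 598 among the 100 best reproducible sites, ordered by the mean of a site's score percentiles in both lists, and the other 98 of those 100 were called in vehicle. At neither position was a vehicle summit near: the closest one was 353126 bp away on chromosome 5 and 3436415 bp away on chromosome 13.

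The next 8 sites in that order had ranks further apart between the lists, with differences of 46 to 191 against 27 and 16 at the first 2. Chromosome 8 at 12019432 scored 82.9 in the first MG132 list (rank 83) and 90.9 in the second (rank 166). The scores at chromosome 6, 83229019, were 84.4 (rank 81) and 88.9 (rank 175). Chromosome 2 at 113357149 had the highest score of any of the 598 in MG132 replicate 1, 105.9 (rank 56), but 75.05 (rank 237) in MG132 replicate 2. It was also the one of the 10 best with the closest vehicle summit, 76231 bp away with a score of 11.6 in vehicle replicate 2. Chromosome 7 at 73504100 scored 68.2 and 89.3, and chromosome 12 at 104757058 scored 66.7 and 84.9. Chromosome 11 at 6196212 leaned to the second list, with 53.5 (rank 178) and 100.4 (rank 132). Chromosome 10 at 37350426 leaned to the first, with 78.4 (rank 95) and 69.1 (rank 286). The tenth, on chromosome 7 at 53576811, scored 48.5 and 109. None of these 10 sites had another reproducible site within 100 kb, the closest being 118511 bp from the chromosome 7 site at 73504100. In all 10 the MG132 summits of both replicates lay within 51 bp of each other.

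Below these leaders the scores fell quickly towards the minimum. In MG132 replicate 1 the 598 sites ranged from 15.1 to 105.9 with a median of 21.6 (quartiles 18.1 and 27.1), and in MG132 replicate 2 from 15.5 to 131 with a median of 30.1 (quartiles 22.1 and 41.2). Scores were at least 50 in both lists at 16 sites and at least 30 in both at 92. At 272 sites (45.5%) the lower of the scores was under 20. It was the score in MG132 replicate 1 that was lower at 462 sites and the score in MG132 replicate 2 at 136, although scores of different lists are not on a common scale. The strong sites that vehicle did call lay higher, with medians of 35.8 and 61.6. The ranges still overlapped widely: 104 of the 599 called sites (17.4%) fell below the median of the uncalled sites in MG132 replicate 1, and 44 (7.35%) did in MG132 replicate 2. Conversely, 68 of the 598 uncalled sites (11.4%) exceeded the median of the called sites in replicate 1, and 37 (6.19%) did in replicate 2.

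**Figure D1:**
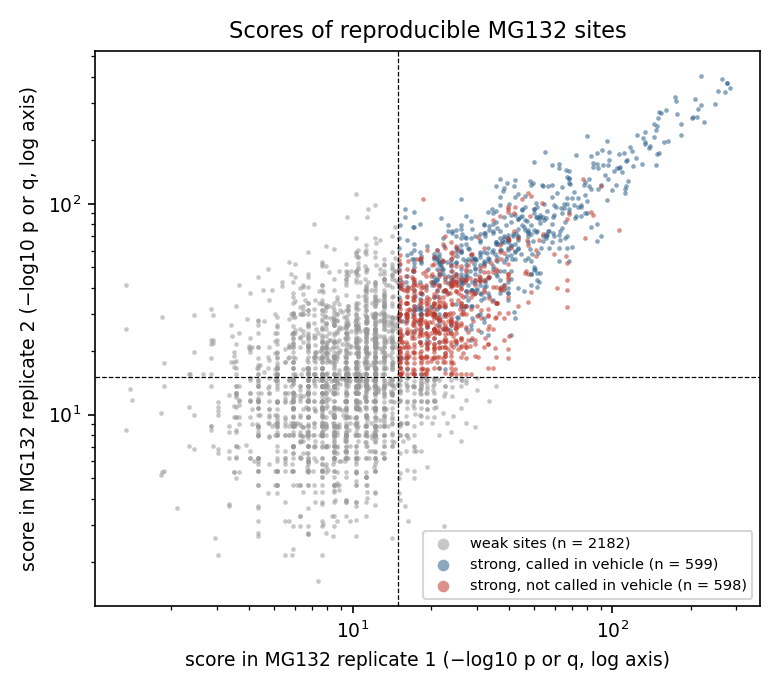
Each point is a reproducible MG132 site, with its score (−log10 p or q) in MG132 replicate 1 on the horizontal and in MG132 replicate 2 on the vertical log axis; dashed lines mark the score minimum of 15. The 598 strong sites not called in vehicle crowd near the minimum and reach 105.9 and 131, while the 599 called in vehicle extend to 282 and 404.

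Scores took few distinct values. The 598 sites shared 179 values in MG132 replicate 1 and 293 in MG132 replicate 2, and 32 of them had the same score, 15.2, in replicate 1. Ties matter at the edge of the rule. The lowest-scoring sites that were kept lay on chromosome 17 at 6428329 (15.09 and 41.5), chromosome 1 at 42648902 (15.13 and 53.9) and chromosome 10 at 82784004 (15.13 and 32.5), the last 2 tied with further sites at 15.13. Just outside lay chromosome 8 at 87647479 (19.1 and 14.96), chromosome 12 at 98238898 (24.98 and 14.94) and chromosome 17 at 34036776 (19.1 and 14.94). The sites just inside were held back by MG132 replicate 1 and those just outside by MG132 replicate 2. Altogether 136 reproducible sites without a vehicle summit reached 15 in MG132 replicate 1 only, and 804 reached it in MG132 replicate 2 only.

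The share of sites called in vehicle was higher in the classes of higher MG132 score, up to 75. Sites were classed by the lower of their MG132 scores. Of the 350 sites from 15 to 20, 78 were called in vehicle (22.3%, exact 95% interval 18.0 to 27.0), and of the 264 from 20 to 25, 88 were (33.3%, 27.7 to 39.4). The share was 57.7% (79 of 137) from 25 to 30, 63.7% (107 of 168) from 30 to 40 and 82.6% (71 of 86) from 40 to 50. It was 88.4% (84 of 95) from 50 to 75 and, slightly lower, 86.8% (33 of 38) from 75 to 100, and all 59 sites at 100 or more were called. Below the minimum the climb had already begun: 1.74% of sites under 5 were called in vehicle, 6.07% from 5 to 10 and 12.1% from 10 to 15. There was no score at which called sites ended and uncalled ones began. The intervals cover counting error only, since sites of the same libraries are not replicates of a condition.

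**Figure D2:**
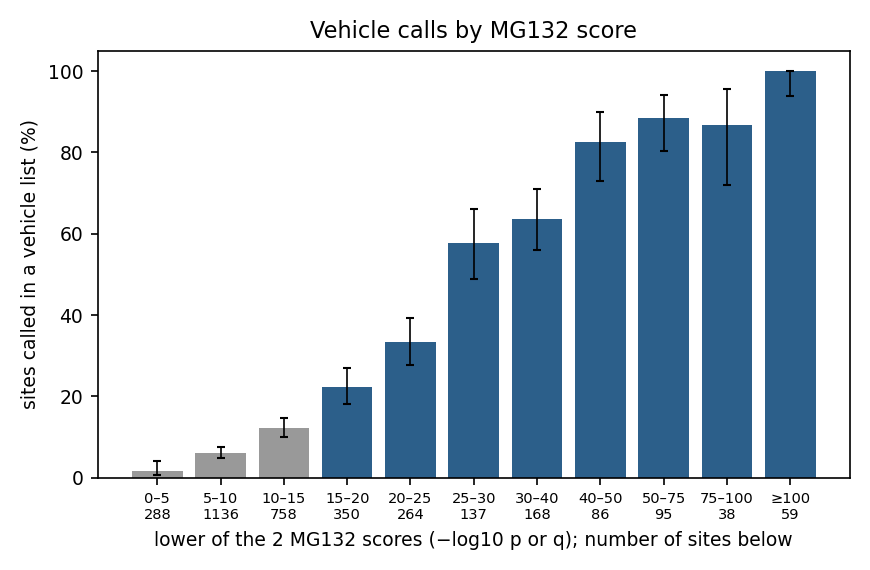
Bars give the percentage of reproducible MG132 sites with a summit of either vehicle list within 200 bp, by the lower of the 2 MG132 scores, with the number of sites under each class; error bars are exact 95% binomial intervals, and blue marks the classes of strong sites. The share rises from 22.3% between 15 and 20 to 100% at 100 or more, so the 598 uncalled sites come mostly from the lower classes.

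The vehicle lists contributed very unequally to these calls. Vehicle replicate 1 called 23 of the 1197 strong sites, and of the remaining 1174 vehicle replicate 2 called 576 (49.1%, exact 95% interval 46.2 to 52.0), which leaves the 598. This share restates the rule and adds no separate evidence. Of the 598 strong sites that vehicle replicate 2 called, vehicle replicate 1 called 22 (3.68%, 2.32 to 5.52).

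Where vehicle replicate 2 did call a strong site, its own score was often low. Over those 598 sites the vehicle score ranged from 1.60 to 170 with a median of 10.5 (quartiles 6.92 and 18.5). It was under 5 at 65 sites and under 10 at 265. In the class from 15 to 20, which held the most uncalled sites (272), the median vehicle score of the called sites was 8.05, and it was 38.7 in the class at 100 or more. If only vehicle summits with a score of at least 5 were allowed to exclude a site, 663 strong sites would count as not called. Across the 598 called sites the vehicle score had a Spearman rho of 0.62 with the score in MG132 replicate 2 and 0.52 with that in MG132 replicate 1, a description over sites of the same libraries.

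Most of the 598 uncalled strong sites were placed better in MG132 replicate 1 than in MG132 replicate 2. Ranked among the 3379 reproducible sites, 448 of the 598 had the better rank in replicate 1, 148 had it in replicate 2 and 2 were level. Their median rank was 807 in replicate 1 and 1100.5 in replicate 2. Strong sites called in vehicle were divided evenly, with 300 and 293. So were the weak sites not called in vehicle, with 1002 and 1013, so the lean was not shared by all uncalled sites. The weak called sites leaned to replicate 2, with 19 and 147. Over all 3379 reproducible sites, 1769 (52.4%) ranked better in replicate 1 and 1601 in replicate 2. The score minimum allowed different ranks in each list: 1337 reproducible sites reached a score of 15 in replicate 1 and 2150 did in replicate 2. With the limit set instead at an equal rank, as many of the best sites in each list as there were strong sites, 307 uncalled sites were left, all of them among the 598. Of these, 187 (60.9%) ranked better in replicate 1 and 118 in replicate 2, and of the 550 called sites within the same limit 269 (48.9%) and 275 did. The part of the score minimum in the lean towards replicate 1 was not tested, since the MG132 scores that make up the ranks also chose the sites, together with the vehicle calls.

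**Figure D3:**
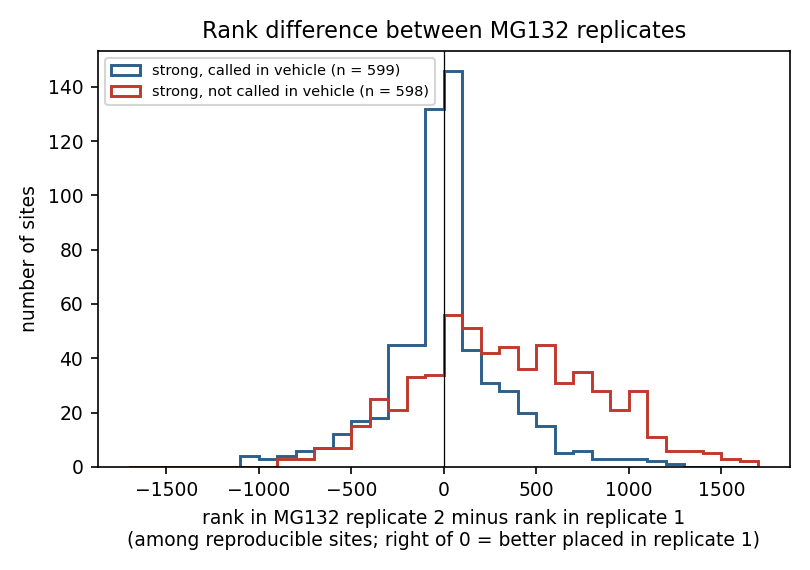
The histogram gives, in steps of 100 ranks, the number of strong sites by their rank in MG132 replicate 2 minus their rank in MG132 replicate 1, among the 3379 reproducible sites. Sites called in vehicle (n = 599) peak around 0, with a median of 1, while those not called (n = 598) spread to the right, with a median of 303.

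Within most score classes, called sites had the higher scores in MG132 replicate 2. The classes are again those of the lower MG132 score, which was that of replicate 1 at 462 uncalled strong sites and that of replicate 2 at 136. They therefore hold most replicate 1 scores within their bounds and leave most replicate 2 scores free above them. Level medians in replicate 1 follow from this classing, and it was mainly replicate 2 that had room to differ. From 15 to 20, both kinds had a median of 17.3 in replicate 1, whereas the median in replicate 2 was 39.4 for the called and 23.8 for the uncalled sites. The medians in replicate 2 were 43.7 and 28.3 from 20 to 25, 46.6 and 35.7 from 25 to 30, and 58.1 and 43.9 from 30 to 40. From 40 to 50 they were nearly level, at 70.3 over 71 called sites and 68.7 over 15 uncalled sites. They were 88.2 and 67.6 from 50 to 75, over 84 and 11 sites, and 127 and 90.9 from 75 to 100, over 33 and 5 sites. Of the 409 strong sites under 30 in replicate 1 but at 30 or more in replicate 2, 208 (50.9%) were not called in vehicle. In the reverse case, at 30 or more in replicate 1 but under 30 in replicate 2, 24 of 31 (77.4%, 58.9 to 90.4) were not called. The cut at 30 is stricter in replicate 1, where a score of 30.03 had rank 478, than in replicate 2, where 30.13 had rank 1130. These cases are therefore not mirror images. Of the 311 under 30 in both lists 274 (88.1%) were not called, and of the 446 at 30 or more in both 92 (20.6%) were not. Nearly all vehicle calls come from vehicle replicate 2, which shares its number with that list. Whether the libraries of a number share a batch is not given, and its part in this was not tested.

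The 6 largest rank differences between the MG132 lists, 1460 to 1616, were all at sites better placed in replicate 1. The score minimum fixed this direction in advance. It allows no rank beyond 1337 in replicate 1, so no difference the other way could be as large. Chromosome 11 at 56070049 ranked 514 among the reproducible sites in replicate 1, with a score of 28.5, and 2130 in replicate 2, with a score of 15.5. Chromosome 12 at 20183144 ranked 383 and 1988, with scores of 34.7 and 16.6. Chromosome 9 at 88461685 ranked 541 and 2120, with scores of 27.3 and 15.6. The ranks of a site differed by more than 1000 at 61 of the 598 sites and by no more than 200 at 177. The Spearman rho between the lists was 0.38 over the 598 sites and 0.76 over the 599 called ones, whose scores cover a wider range, so these values are not comparable as measures of agreement.

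The placement of the summits, which the rule limits to 200 bp but otherwise leaves free, was close. The MG132 summits of both replicates lay a median of 12 bp apart over the 598 sites, 90% of them within 35 bp, and the largest distance was 80 bp. Within 10 bp lay 265 sites (44.3%) and within 50 bp 573 (95.8%). The strong sites called in vehicle had a median of 9 bp and 90% within 27 bp, and the 2016 weak sites not called in vehicle had 16 bp and 51.5 bp. In the same score class the gap in medians between called and uncalled sites nearly closed: the medians were 11 and 12 bp from 15 to 20, 11 and 12.5 bp from 20 to 25, and 10 and 11 bp from 25 to 30. The distances that held 90% of the sites varied more. In these classes they were 33.3 and 35 bp, 28 and 37.5 bp, and 32.8 and 28.1 bp. From 40 to 50 the medians were 6 and 15 bp and the 90% distances 26 and 44.2 bp, with 15 uncalled sites only. No test was made of these distances.

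**Figure D4:**
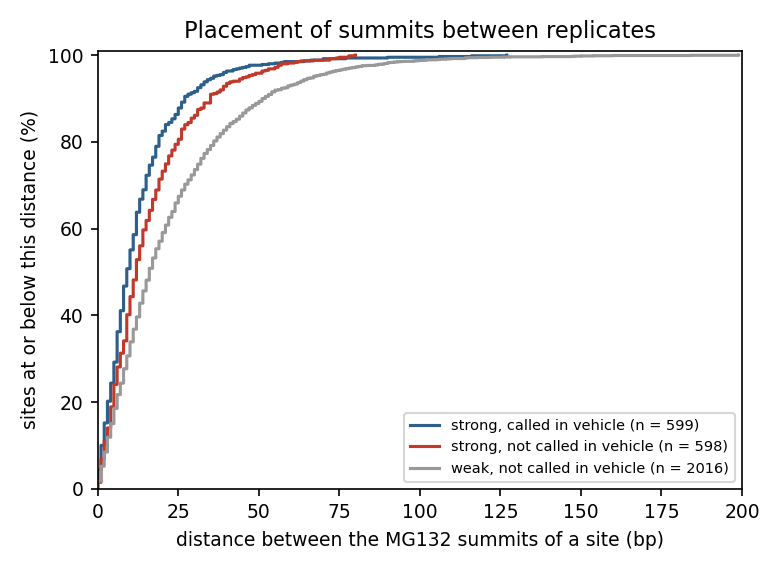
Lines give the percentage of sites whose MG132 summits in replicates 1 and 2 lie at or below the distance on the horizontal axis (bp). Of the strong sites not called in vehicle, 95.8% lie within 50 bp, between 97.7% of the strong called sites and 89.3% of the weak uncalled sites.

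Each MG132 list was then asked how well it recovered sites chosen in the other. Of the 746 summits of MG132 replicate 1 with a score of at least 15 and no vehicle summit, 734 (98.4%, exact 95% interval 97.2 to 99.2) had a summit of replicate 2 within 200 bp, and 598 (80.2%) had one that scored at least 15. Of the 1793 such summits of MG132 replicate 2, 1403 (78.2%, 76.3 to 80.1) had a summit of replicate 1, and 598 (33.4%) had one that scored at least 15. Over all summits that scored at least 15, vehicle-called ones included, 1337 of 1350 summits of replicate 1 (99.0%) had a summit in the other list and 1197 (88.7%) had one of at least 15. For replicate 2 these were 2150 of 2564 (83.9%) and 1197 (46.7%). At any score, recovery of the vehicle-free summits of replicate 1 was thus near that of all its summits (98.4% against 99.0%). For replicate 2 it was lower (78.2% against 83.9%). With a score of at least 15 required, it was lower for both, 80.2% against 88.7% and 33.4% against 46.7%. The 598 recovered in either direction are the chosen sites themselves, so these shares restate the rule and add no separate evidence. Uncalled strong sites also scored lower than called ones, with medians of 21.6 against 35.8 in replicate 1 and 30.1 against 61.6 in replicate 2. The part of the score in these differences was not tested. All summits include the vehicle-free ones, so vehicle-called summits were recovered more often than these shares show. The sites are a smaller share of the longer list.

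No vehicle summit lay between 200 bp and 1 kb of any of the 598 sites (0 of 598, exact 95% upper bound 0.615%). The number was therefore the same when a vehicle summit within 500 or 1000 bp excluded a site. The closest case was chromosome 11 at 80244126, with scores of 22.3 and 36.3 and a summit of vehicle replicate 2, score 5.46, 1748 bp from the nearer MG132 summit. It was followed by chromosome 5 at 136435931 (17.3 and 37.9), with a vehicle summit at 2271 bp, and chromosome 6 at 99883613 (33.3 and 29.3), with a vehicle summit at 2878 bp. In all, 11 sites (1.84%, 0.922 to 3.27) lay within 10 kb of a vehicle summit, and the median distance to the nearest vehicle summit was 753 kb. Among weak sites not called in vehicle, 22 of 2016 (1.09%, 0.685 to 1.65) lay within 10 kb of a vehicle summit and the median distance was 843 kb. Within 1 kb of one lay 2 of these weak sites (0.0992%, 0.012 to 0.358). The absence of such a case among the 598 is near that share.

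Called and uncalled strong sites lay side by side in a few places. Of the 598 sites, 8 (1.34%, 0.579 to 2.62) had a strong vehicle-called site within 10 kb. That was near the share over all reproducible sites, 38 of 3379 (1.12%, 0.797 to 1.54). For the strong called sites it was 12 of 599 (2.00%), and for the weak uncalled sites 14 of 2016 (0.694%). On chromosome 17 the site at 6428329 (15.1 and 41.5) lay 4742 bp from a called site at 6433071 that scored 88.0 and 117 in the MG132 lists and 26.0 in vehicle replicate 2. Also on chromosome 17, the site at 34150885 (20.5 and 20.6) lay 6212 bp from a called site at 34157097 (54.1 and 70.2). In these 2 places the called neighbour scored higher in both MG132 lists. On chromosome 1 the order differed by list: the uncalled site at 38715946 scored 35.8 and 33.8, and the called site at 38712193, 3753 bp away, scored 15.2 and 41.4. On chromosome 6 the uncalled site at 99883613 scored 33.3 and 29.3, and its called neighbour at 99880706 scored 26.4 and 71.6. In none of the 8 places did the uncalled site score higher in both lists.

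Most of the 598 sites stood apart from each other, as did the strong sites called in vehicle. Of those 599 called sites, 12 (2.00%) lay within 10 kb of another strong called site. Within 10 kb of another of the 598 uncalled sites lay 12 of them (2.01%), in 6 groups of 2. The other 586 had no such neighbour. The pair with the best-placed member was on chromosome 4, at 33554280 (42.1 and 96.3) and 33558931 (16.1 and 31.5), 4651 bp apart. A second pair on the same chromosome, at 33418325 and 33425121, lay 6796 bp apart and scored 24.2 and 33.3 at the first position and 22.3 and 53.4 at the second. The closest pair was on chromosome 19, at 14021926 (18.6 and 16.7) and 14024375 (27.3 and 30.2), 2449 bp apart. The others were on chromosome 8, at 96675079 and 96684509 and at 18830408 and 18835528, and on chromosome 1, at 10456193 and 10459231. Counting any reproducible site as a neighbour, 41 of the 598 (6.86%, 4.96 to 9.19) had one within 10 kb, and 38 of the 599 called strong sites did (6.34%, 4.53 to 8.60). These intervals overlap.

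The sites were found on chromosomes 1 to 19 and X. Chromosome 4 held the most, 55, and X the fewest, 12. As a share of the strong sites of a chromosome, the autosomes ranged from 41.9% (13 of 31, exact 95% interval 24.5 to 60.9) on chromosome 14 to 62.0% (31 of 50, 47.2 to 75.3) on chromosome 12. On chromosome 4 it was 61.1% (55 of 90, 50.3 to 71.2), while 35 strong sites there were called in vehicle. X had 15 strong sites, of which 12 were not called in vehicle (80.0%, 51.9 to 95.7), and all autosomes together had 586 of 1182 (49.6%, 46.7 to 52.5). The strong sites of X also scored lower: the median of the lower MG132 score was 18.0 on X, with a highest value of 29.7, and 24.98 on the autosomes. The part of the score in the share on X was not tested. The best-placed uncalled site of X lay at 72383155 with scores of 21.6 and 47.9, followed by 137385031 with 23.8 and 35.1.

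**Figure D5:**
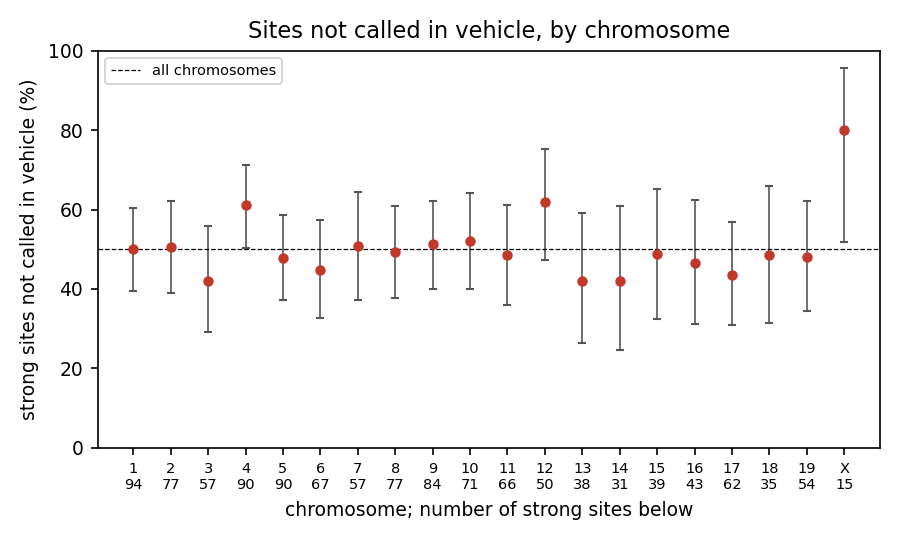
Points give, for each chromosome, the percentage of strong MG132 sites that were not called in vehicle, with exact 95% binomial intervals; the number of strong sites stands under each chromosome and the dashed line is the share over all chromosomes, 49.96%. The share is 80.0% of 15 sites on X and lies between 41.9% and 62.0% on the autosomes; the intervals describe counting error and are not a test.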

How the data were processed

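Each ChIP library has a deposited list of summits with 1-bp intervals. The authors' score in these lists is a −log10 p or q value, and the sources do not say which. Per the submitters' processing notes, MACS2 2.1.4, Bowtie2 2.2.9 and bcl2fastq 2.16.0.10 were used with mm9; settings, the treatment of duplicates and the use of the input libraries are not given. The lowest score of any list was 1.34. More reads raise a score, so scores were ranked or filtered within a list.

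Positions were made 1-based. Groups came from the titles. The reference tables here are of another build, GRCm38.p6, so the planned results on motifs and transcription starts were not run and no gene list was applied. Intervals are exact Clopper-Pearson 95% intervals. The matching was tested on simulated lists without closely spaced or unpaired MG132 summits. Competing summits and distances near the 200 bp limit were therefore not tried. Sites named are the 10 with the best mean percentile, 3 on each side of the score minimum, and others chosen after their values were seen. No site had a vehicle summit within 1 kb, for which names were also reserved. Sites and measures were chosen with earlier results of these data known. The scripts ran in Python 3.11.15 with SciPy 1.17.1, pandas 2.3.3, NumPy 2.4.6 and, for figures, matplotlib 3.10.9.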

Additional observations from a re-analysis of the deposited data

How the results depend on the processing

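The number of strong sites not called in vehicle (598, or 49.96% of strong sites) rested on the score minimum, vehicle replicate 2 and MG132 replicate 1. With a minimum of 10, 20 and 30 it was 1264 (64.7%), 326 (38.5%) and 92 (20.6%), fewer sites passing each higher minimum. Matching within 50 to 1000 bp gave 598 to 611. Leaving out each library in turn gave 599 to 1793 sites and 50.04% to 98.1% of strong sites: 1174 without vehicle replicate 2, 1793 without MG132 replicate 1 (where MG132 replicate 2 alone defined the sites) and 746 without MG132 replicate 2. With the replicate number as a block, number 1 on its own gave 1327 (98.3%) and number 2 gave 1794 (70.0%); no test entered this pairing, and 2 numbers cannot show whether they pair the libraries. Of the 2 alternatives chosen after seeing the data, vehicle summits of at least 5 gave 663 (55.4%) and an equal rank limit in both lists gave 307 (35.8%). The share that vehicle replicate 2 called of the strong sites not in vehicle replicate 1 (49.1%) was 78.3% with a minimum of 30. The 19 further settings for motifs and transcription starts need an mm9 genome and were not run. Unknown read depth limits every statement on absence from vehicle.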
